A study of Homo sapiens with 6 samples.

Results

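Fatty acid synthesis, desaturation and droplet storage were described through 33 genes, out of 27887 gene rows in the deposited table, in KYSE450 cells, an established human esophageal squamous cell carcinoma line. The genes were chosen by name, as the enzymes that make, desaturate, elongate and activate fatty acids together with the proteins that assemble triglyceride and coat lipid droplets, and each name matched 1 row. RNA-seq had been done on 2 groups of 3 libraries. The shHMGB2 group was KYSE450 infected with a virus carrying a short hairpin RNA against HMGB2, labelled as HMGB2 knockdown. The mock group was the same line after mock virus infection, labelled WT. Both groups therefore went through an infection, and both were grown in medium with fetal bovine serum, which is itself a source of fatty acids. Whether the mock virus carried a hairpin, and how many hairpins were used, is not given in any source used here. No label states that replicate libraries were grown as separate cultures. The p-values below therefore describe variation among these 6 libraries, and that variation could be technical.

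Cells make fatty acids from acetyl-CoA that ATP citrate lyase releases from citrate. Acetyl-CoA carboxylase turns it into malonyl-CoA, fatty acid synthase builds palmitate, and desaturases and elongases then shape the chain. Long-chain acyl-CoA synthetases activate the products, acyltransferases join them to glycerol, and triglyceride is kept in droplets coated by perilipins. Many of these genes are targets of the transcription factor SREBP-1, the product of SREBF1. In tumours this pathway supplies membrane lipid.

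Of the 33 genes, 1 passed the test. It was ACACB, which encodes the acetyl-CoA carboxylase of the mitochondrial surface, and it was higher in shHMGB2 cells. A total of 31 had a mean of at least 1 FPKM (fragments scaled by gene length and library total) over the 6 libraries and were tested with limma on log2(FPKM + 1), adjusted over 13409 genes. ACSL5 and PLIN2 were below that level. Called higher was 1 of 31 (3.23%), against 3.30% of all genes tested, and called lower was 0 of 31, against 3.45% of all genes tested. At an unadjusted p under 0.05 the count was 6 of 31 (19.4%) in both directions together, against 27.9% of all genes tested. Groups that did not overlap were found for 6 of 31 genes on the higher side (19.4%), against 21.6% of all genes, and for 3 of 31 on the lower side (9.68%), against 14.0% of all genes. These shares were near the background or below it. The median log2 fold change was 0.07 over the 31 genes and 0.04 over all genes tested, and 17 of the 31 values lay above 0 (54.8%), against 57.0% of all genes tested. Fold changes of single genes ran from -0.43 to 0.43. The 95% interval lay within 0.5 log2 units of 0 for 27 of 31 genes, so larger changes on the log2(FPKM + 1) scale were outside the interval for those. That scale makes changes of low genes too small. For genes near 1 FPKM, such as DGAT1 and DGAT2, the intervals therefore do not exclude larger changes in FPKM itself. The summed level of all 33 genes was 1536, 1499 and 1479 FPKM in shHMGB2 libraries and 1485, 1430 and 1511 FPKM in mock libraries, and these ranges overlapped.

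The targeted gene, HMGB2, was read at 22.1, 24.45 and 27.75 FPKM in shHMGB2 libraries and at 115.8, 111.4 and 108.6 FPKM in mock libraries, without overlap (log2 fold change -2.14, SE 0.084, limma adjusted p = 0.000113). All 10 squamous epithelial markers reached 1 FPKM. Their summed level was 6400 to 7162 FPKM in shHMGB2 libraries and 7432 to 7671 FPKM in mock libraries, with KRT14, KRT6A and KRT17 lower and SOX2 higher at an adjusted p under 0.05 in limma. Of the adipocyte markers 5 were matched, and of these only LPL reached 1 FPKM, with a summed level of 8.82 to 9.79 FPKM in shHMGB2 libraries and 8.98 to 10.1 FPKM in mock libraries. Fibroblast, leukocyte and endothelial lists had 1 gene each at that level, namely LUM, CD68 and ERG. CD68 was lower in shHMGB2 cells (log2 fold change -0.61, limma adjusted p = 0.00454). PTPRC, CD14 and LYZ, the other leukocyte markers matched, were at or below 0.13 FPKM in every library. The part of these marker changes in the results was not tested. FPKM gives no read number, so depth per gene is not known. In bulk libraries of a single line, fewer cells in some state and less RNA per cell cannot be told apart.

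**Figure D1:**
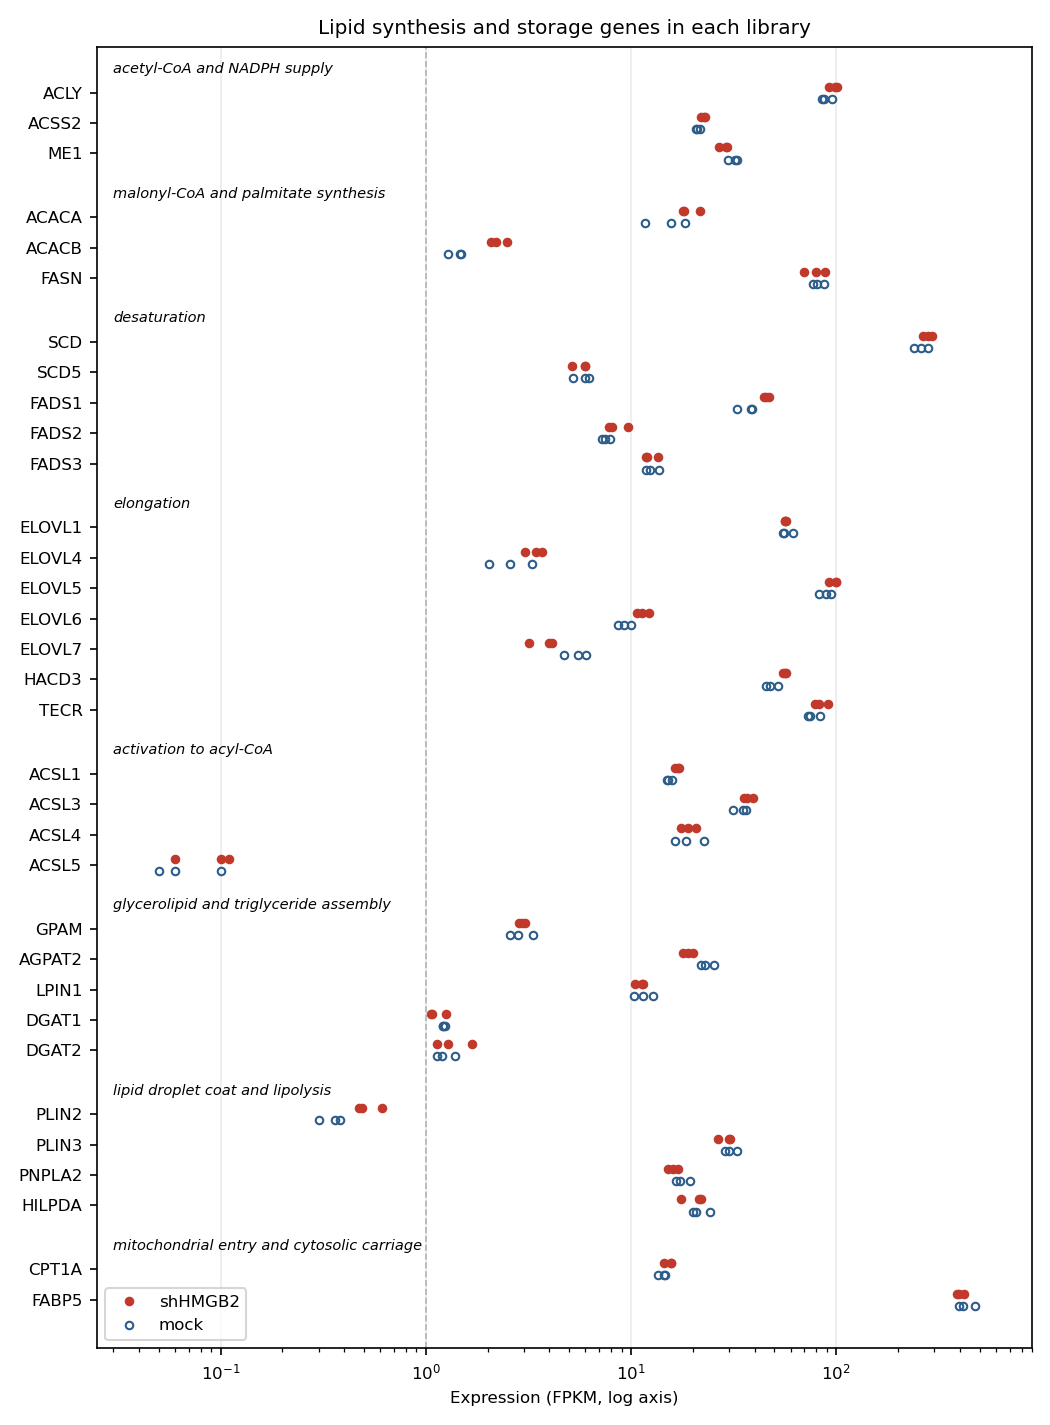
FPKM of the 33 genes in each library on a log axis, with shHMGB2 libraries as filled red points above mock libraries as open blue points, grouped by role. The dashed line marks 1 FPKM. ACSL5 and PLIN2 lie below it, FABP5 and SCD lie highest, and most groups of points overlap.

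The genes that supply carbon and reducing power came first in the pathway. ACLY, ATP citrate lyase, had 101.3, 98.8 and 92.4 FPKM in shHMGB2 libraries and 87.2, 84.8 and 95.1 FPKM in mock libraries. The groups overlapped, because mock replicate 3 lay above shHMGB2 replicate 3 (log2 fold change 0.13, limma adjusted p = 0.239). ME1, the cytosolic malic enzyme that yields NADPH, had 27.0, 29.4 and 29.1 FPKM in shHMGB2 libraries and 29.6, 32.3 and 32.9 FPKM in mock libraries. Every shHMGB2 library was below every mock library for ME1, and the difference did not pass (log2 fold change -0.14, limma adjusted p = 0.198). ACSS2, which makes acetyl-CoA from acetate, had 22.75, 22.0 and 22.9 FPKM in shHMGB2 libraries and 21.0, 20.8 and 21.7 FPKM in mock libraries. Its groups did not overlap either, on the higher side (log2 fold change 0.09, limma adjusted p = 0.323).

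In malonyl-CoA and palmitate synthesis, 1 of the 3 genes passed the threshold, and differences between the genes were not tested. ACACB had 2.49, 2.2 and 2.08 FPKM in shHMGB2 libraries, against 1.28, 1.46 and 1.49 FPKM in mock libraries. Every shHMGB2 library was above every mock library. The means were 2.26 ± 0.211 FPKM in shHMGB2 cells and 1.41 ± 0.114 FPKM in mock cells (SD, n = 3 each), a ratio of 1.60. On the log2 scale ACACB was 0.43 higher in shHMGB2 cells, with an SE of 0.092 (limma adjusted p = 0.0370). At this low level the log2(FPKM + 1) scale understates the change. Leaving out any single library ended the call, with limma adjusted p between 0.0575 and 0.122, and so did a replicate block (0.107) and a fit without the level filter (0.0981). ACACB lies on chromosome 12 at 109111189 to 109268226 (GRCh38.p14) and overlaps the lncRNA gene LOC105369974 by 13189 bases. ACACA, the cytosolic carboxylase whose malonyl-CoA feeds palmitate synthesis, had 21.8, 17.9 and 18.1 FPKM in shHMGB2 libraries and 11.7, 15.7 and 18.4 FPKM in mock libraries. Mock replicate 3 overlapped the shHMGB2 range, and the interval was wide (log2 fold change 0.33, 95% interval -0.03 to 0.69, limma adjusted p = 0.204). ACACB stood at 0.114, 0.123 and 0.115 of the ACACA level per library in shHMGB2 cells and at 0.109, 0.0932 and 0.0810 in mock cells, both in FPKM, so it remained the minor carboxylase. FASN, the synthase, had 88.6, 79.5 and 69.3 FPKM in shHMGB2 libraries and 80.9, 77.4 and 87.05 FPKM in mock libraries. The groups overlapped (log2 fold change -0.05, limma adjusted p = 0.744).

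Start-site windows show what lies upstream of the genes named here. SREBP-1 is known to bind sterol regulatory elements beside NF-Y, which binds CCAAT, and Sp1, which binds GC boxes. RefSeq start-site windows on GRCh38.p14, from 250 bases before to 50 after the start, were included for 28 of the 33 genes, as 43 windows. No window of FASN, DGAT1, DGAT2, FABP5 or HILPDA was included. The shares below therefore describe the included windows and not the whole list, and a comparison with all windows is only approximate. Both strands were searched for TCACNCCAC (a sterol regulatory element), CACGTG (an E-box), CCAAT (the NF-Y box), TGANTCA (AP-1) and GGGCGG (a GC box). GC boxes were in 32 of the 43 windows (74.4%), against 44.9% of all 34796 windows. The windows were not matched for their content of G and C, and overlapping windows of the same gene, as for ACLY and TECR, were counted separately. CCAAT was in 20 of 43 (46.5%), against 34.6% of all windows. The sterol element was in 2 of 43 (4.65%), of ACSL1 and PNPLA2, against 1.12% of all windows. E-boxes and AP-1 letters were each in 3 of 43 (6.98%), against 7.20% and 7.73% of all windows. A match is a description of letters and not evidence of binding. The windows of ACACB are shown because it was the gene called. Capitals mark a match to any of the searched motifs on either strand. Of the windows included for ACACB, the upstream start (chr12:109116337-109116636, plus strand) holds none of them. The start farther downstream (chr12:109154429-109154728, plus strand) holds CCAAT at 2 places and GC boxes at 3. The gene itself begins at 109111189, upstream of both, and no window there was included.
ACACB upstream start: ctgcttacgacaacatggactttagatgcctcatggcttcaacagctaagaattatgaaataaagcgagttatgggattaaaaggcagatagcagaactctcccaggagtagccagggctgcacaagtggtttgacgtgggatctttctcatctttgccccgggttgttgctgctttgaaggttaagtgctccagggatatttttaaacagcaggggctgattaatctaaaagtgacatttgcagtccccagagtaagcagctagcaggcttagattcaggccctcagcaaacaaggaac
ACACB downstream start: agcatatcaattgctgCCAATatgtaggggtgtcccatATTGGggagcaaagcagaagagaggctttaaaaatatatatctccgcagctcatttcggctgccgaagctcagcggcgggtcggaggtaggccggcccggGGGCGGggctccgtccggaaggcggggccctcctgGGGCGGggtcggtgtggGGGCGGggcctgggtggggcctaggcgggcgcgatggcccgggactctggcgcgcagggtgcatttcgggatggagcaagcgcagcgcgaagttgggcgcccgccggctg
The deposited values are per gene, so which start was used is not resolved.

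Desaturases add double bonds. SCD, stearoyl-CoA desaturase, makes oleate and was the most abundant desaturase, with 293, 280 and 266 FPKM in shHMGB2 libraries and 240, 260 and 281 FPKM in mock libraries. The groups overlapped (log2 fold change 0.11, limma adjusted p = 0.385). FADS1, the delta-5 desaturase of polyunsaturated fatty acids, had 47.1, 45.7 and 44.4 FPKM in shHMGB2 libraries and 32.75, 39.0 and 38.6 FPKM in mock libraries. All shHMGB2 libraries were above all mock libraries, at 45.8 ± 1.35 FPKM in shHMGB2 cells and 36.8 ± 3.49 FPKM in mock cells (SD, n = 3 each). Its log2 fold change was 0.31 (SE 0.077), and it missed the threshold narrowly (limma adjusted p = 0.0571). FADS2, the delta-6 desaturase, had 9.71, 8.07 and 7.80 FPKM in shHMGB2 libraries and 7.25, 7.50 and 7.90 FPKM in mock libraries, which overlapped (log2 fold change 0.15, limma adjusted p = 0.308). The gene bodies of FADS1 and FADS2 overlap by 801 bases on opposite strands, and without a stated strand setting reads there cannot be told apart. SCD5 and FADS3 had log2 fold changes of -0.03 and -0.02. The window of the FADS1 start (chr11:61816954-61817253, minus strand) is shown because FADS1 had the smallest p in this group. It holds GC boxes at 2 places and no CCAAT.
FADS1 start: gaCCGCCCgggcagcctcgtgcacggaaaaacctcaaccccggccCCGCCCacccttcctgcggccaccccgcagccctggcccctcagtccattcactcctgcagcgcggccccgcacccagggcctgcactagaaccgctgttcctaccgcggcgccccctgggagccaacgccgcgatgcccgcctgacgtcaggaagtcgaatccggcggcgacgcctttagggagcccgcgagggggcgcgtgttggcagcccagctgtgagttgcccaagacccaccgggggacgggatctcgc

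The elongation cycle gave the widest range of fold changes among the 8 role groups of the 33 genes. ELOVL5, which lengthens polyunsaturated chains, had 92.7, 99.6 and 99.7 FPKM in shHMGB2 libraries and 82.5, 89.3 and 94.1 FPKM in mock libraries, and the groups overlapped (log2 fold change 0.14, limma adjusted p = 0.228). ELOVL6, which lengthens palmitate to stearate, had 10.7, 12.25 and 11.3 FPKM in shHMGB2 libraries and 8.64, 9.27 and 9.97 FPKM in mock libraries, without overlap (log2 fold change 0.27, SE 0.079, limma adjusted p = 0.0820). ELOVL7, an elongase of long saturated chains, had 3.19, 4.00 and 4.10 FPKM in shHMGB2 libraries and 4.70, 6.02 and 5.49 FPKM in mock libraries. Here every shHMGB2 library was below every mock library, at 3.76 ± 0.499 FPKM in shHMGB2 cells and 5.40 ± 0.664 FPKM in mock cells (SD, n = 3 each). The log2 fold change was -0.43 (SE 0.113), the lowest of the 31, and did not pass (limma adjusted p = 0.0662). ELOVL7 and ELOVL6 thus had values on opposite sides of 0. The ratio of ELOVL6 to ELOVL7, chosen after the values were seen, was 3.34, 3.06 and 2.77 in shHMGB2 libraries and 1.84, 1.54 and 1.82 in mock libraries. HACD3, a dehydratase of the cycle, had 55.35, 57.2 and 56.3 FPKM in shHMGB2 libraries and 45.4, 47.6 and 51.8 FPKM in mock libraries, without overlap (log2 fold change 0.22, limma adjusted p = 0.0787). TECR, the reductase that closes the cycle, had a log2 fold change of 0.13. It overlaps DNAJB1 by 32666 bases, so its reads may be shared. ELOVL4 and ELOVL1 had log2 fold changes of 0.29 and -0.02. The summed level of the 7 genes was 313, 315 and 311 FPKM in shHMGB2 libraries and 288, 285 and 293 FPKM in mock libraries, and these sums did not overlap, on the higher side. The ELOVL7 window (chr5:60844220-60844519, minus strand) is shown because ELOVL7 had the lowest fold change. It holds GC boxes at 4 places.
ELOVL7 start: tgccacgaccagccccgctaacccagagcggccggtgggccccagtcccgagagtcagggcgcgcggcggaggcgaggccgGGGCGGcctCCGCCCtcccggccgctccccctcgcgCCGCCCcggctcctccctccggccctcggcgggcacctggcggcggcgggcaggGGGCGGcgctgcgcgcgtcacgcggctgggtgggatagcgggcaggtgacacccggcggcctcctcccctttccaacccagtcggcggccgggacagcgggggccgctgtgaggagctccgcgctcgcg

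**Figure D2:**
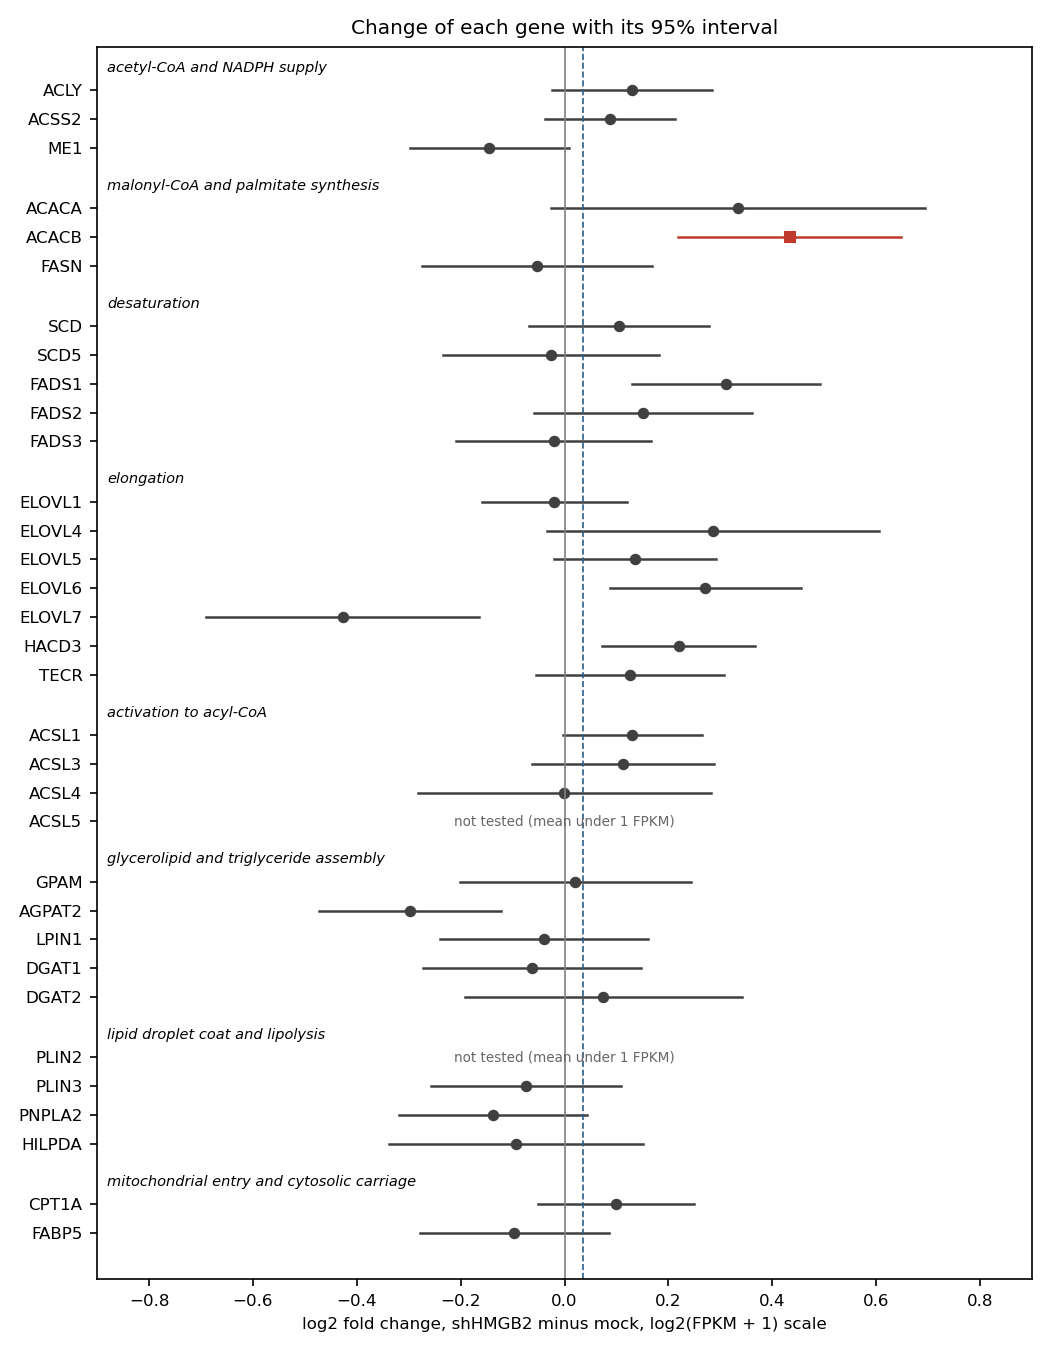
Log2 fold change of shHMGB2 over mock, on the log2(FPKM + 1) scale, for the 31 genes tested, with bars for the 95% interval and genes grouped by role. The dashed line marks the median of all genes tested, 0.04. ACACB at 0.43, drawn as a red square, was the gene called, and ELOVL7 lies lowest at -0.43.

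Acyl-CoA synthetases trap fatty acids in the cell. ACSL3, which sits on the endoplasmic reticulum and droplets, had 36.6, 39.4 and 35.4 FPKM in shHMGB2 libraries and 31.3, 35.2 and 36.4 FPKM in mock libraries, which overlapped (log2 fold change 0.11, limma adjusted p = 0.362). ACSL1 had 16.4, 17.2 and 17.0 FPKM in shHMGB2 libraries and 15.0, 15.1 and 15.8 FPKM in mock libraries, without overlap (log2 fold change 0.13, limma adjusted p = 0.187). ACSL4, which prefers arachidonate, averaged 19.0 ± 1.63 FPKM in shHMGB2 cells and 19.2 ± 3.28 FPKM in mock cells (SD, n = 3 each). ACSL5 was at 0.06 to 0.11 FPKM in shHMGB2 libraries and 0.05 to 0.10 FPKM in mock libraries.

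Glycerolipid assembly joins fatty acids to glycerol. AGPAT2 makes phosphatidic acid, and its loss causes lipodystrophy in humans. It had 20.0, 18.9 and 17.9 FPKM in shHMGB2 libraries and 25.45, 22.0 and 23.1 FPKM in mock libraries. The groups did not overlap, with 18.9 ± 1.08 FPKM in shHMGB2 cells and 23.5 ± 1.78 FPKM in mock cells (SD, n = 3 each), and the difference narrowly missed the threshold (log2 fold change -0.30, SE 0.075, limma adjusted p = 0.0586). GPAM, which starts the pathway at mitochondria, and LPIN1, a phosphatidate phosphatase, had log2 fold changes of 0.02 and -0.04. DGAT1 and DGAT2, which complete triglyceride, were at 1.06 to 1.25 and 1.14 to 1.67 FPKM in shHMGB2 libraries, and at 1.21 to 1.24 and 1.13 to 1.38 FPKM in mock libraries. Their log2 fold changes were -0.06 and 0.07. The summed level of the 5 assembly genes was 37.35, 35.5 and 33.5 FPKM in shHMGB2 libraries and 40.7, 38.8 and 41.5 FPKM in mock libraries. These sums did not overlap either, on the lower side, and AGPAT2 was the only one of the 5 whose own groups did not overlap. The summed level of the 14 other glycerolipid assembly genes matched went the other way. It was 155, 151 and 148 FPKM in shHMGB2 libraries and 140, 139 and 134 FPKM in mock libraries, also without overlap. Among these 14, LPCAT1 had 20.35, 18.5 and 15.6 FPKM in shHMGB2 libraries and 14.95, 11.4 and 12.5 FPKM in mock libraries. Its log2 fold change of 0.45 was the highest of the 97 other pathway genes tested (limma adjusted p = 0.0679). Role groups other than elongation and assembly had sums that overlapped between shHMGB2 and mock libraries. The window of the AGPAT2 start (chr9:136687408-136687707, minus strand) is shown because AGPAT2 was the assembly gene with the smallest p. It holds GC boxes at 7 places, of which a neighbouring pair shares 1 base, and no CCAAT.
AGPAT2 start: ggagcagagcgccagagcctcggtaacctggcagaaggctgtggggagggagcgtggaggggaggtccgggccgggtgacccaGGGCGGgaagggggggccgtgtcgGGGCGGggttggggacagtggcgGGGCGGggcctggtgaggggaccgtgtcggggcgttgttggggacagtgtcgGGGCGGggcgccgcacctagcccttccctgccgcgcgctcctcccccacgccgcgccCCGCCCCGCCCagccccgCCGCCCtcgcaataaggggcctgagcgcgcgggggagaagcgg

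Droplet proteins and lipolysis gave no call. PLIN3, a perilipin found in many tissues, had 30.4, 29.9 and 26.5 FPKM in shHMGB2 libraries and 33, 29.9 and 28.7 FPKM in mock libraries, which overlapped (log2 fold change -0.07, limma adjusted p = 0.562). PNPLA2, the adipose triglyceride lipase, had 16.9, 15.1 and 16.0 FPKM in shHMGB2 libraries and 19.4, 17.4 and 16.5 FPKM in mock libraries, which overlapped (log2 fold change -0.14, limma adjusted p = 0.285). HILPDA, an inhibitor of that lipase, had a log2 fold change of -0.09. PLIN2, the perilipin that usually marks stored triglyceride, was at 0.49, 0.47 and 0.61 FPKM in shHMGB2 libraries and 0.38, 0.36 and 0.30 FPKM in mock libraries. It was not tested at that level, although its groups did not overlap.

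Transport and oxidation entry close the list. FABP5, a fatty acid carrier of epithelia, was the most abundant of the 33, with 397, 387 and 418 FPKM in shHMGB2 libraries and 474, 399 and 415 FPKM in mock libraries. The groups overlapped (log2 fold change -0.10, limma adjusted p = 0.449), and its value is uncertain because near-identical pseudogene copies could share its reads. CPT1A, which admits long-chain fatty acids to mitochondria and is inhibited by malonyl-CoA, had 15.7, 15.7 and 14.45 FPKM in shHMGB2 libraries and 13.5, 14.6 and 14.5 FPKM in mock libraries, which overlapped (log2 fold change 0.10, limma adjusted p = 0.348). FABP5 and SCD together made up 44.9, 44.5 and 46.3% of the summed level of the 33 genes in shHMGB2 libraries and 48.1, 46.0 and 46.1% in mock libraries.

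**Figure D3:**
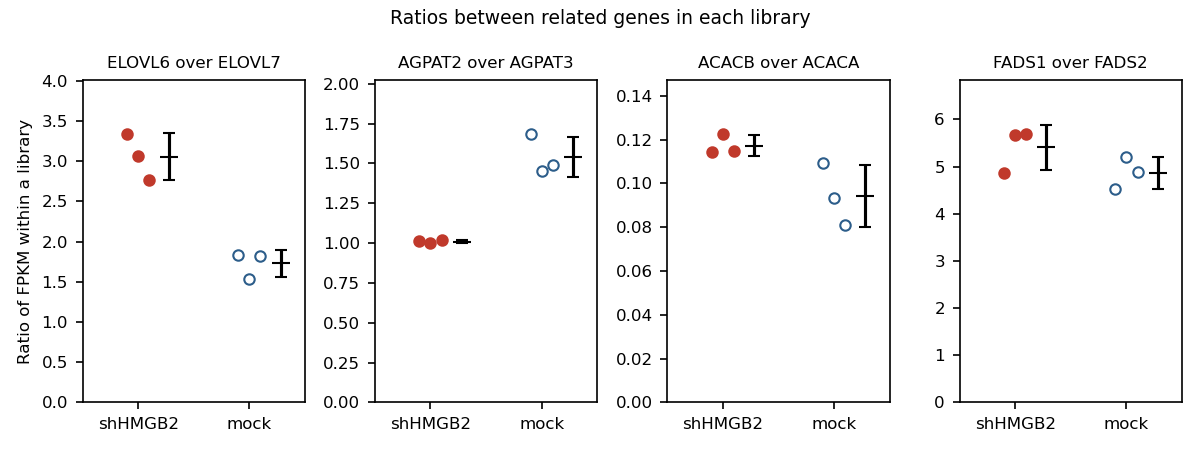
Ratio of FPKM between pairs of genes within each library, with shHMGB2 left of mock, points for libraries and bars for mean ± SD (n = 3 each). ELOVL6 over ELOVL7, ACACB over ACACA and AGPAT2 over AGPAT3 do not overlap between groups, while FADS1 over FADS2 does. For ELOVL6 over ELOVL7 and AGPAT2 over AGPAT3 this adds nothing to the single genes. In each of these pairs the groups of both genes already lay apart, in opposite directions.

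The authors' deposited table, which comes from another test, held more calls. At its adjusted p under 0.05, 3 of 31 genes were higher (9.68%), against 6.13% of all genes in the authors' deposited table. They were ACACB, FADS1 and ELOVL6, with log2 fold changes of 0.62, 0.26 and 0.24 and adjusted p = 0.000163, 0.0120 and 0.0472 in the authors' deposited table. Lower were 3 of 31 (9.68%), against 9.23% of all genes in the authors' deposited table, namely ELOVL7, AGPAT2 and ME1, at -0.58, -0.39 and -0.21 and adjusted p = 0.00202, 0.00890 and 0.0467. The authors' deposited table marks genes Up or Down, all with a log2 fold change of at least 1.0 in size, and these were 0.559% of genes with an adjusted p. None of the 33 genes was marked, and the largest fold change in size among the 31 with an adjusted p in the authors' deposited table was 0.62.

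The rest of the pathway was read from 128 further genes of fatty acid metabolism, of which 124 were matched and 97 tested. Of these, 1 was called higher (1.03%) and 0 lower in limma, against 3.30% and 3.45% of all genes tested. At an unadjusted p under 0.05 the count was 26 of 97 in both directions together, near the 27.9% of all genes tested. Of these, 21 were higher (21.6%) and 5 lower (5.15%). All genes tested also leaned higher (57.0% above 0). Their share at this p was not split by direction, so the 21 and 5 are not read as a result. Groups did not overlap for 28 on the higher side (28.9%), against 21.6% of all genes, and for 6 on the lower side (6.19%), against 14.0% of all genes. The authors' deposited table had 4 higher (4.00%) and 3 lower (3.00%) of 100 with an adjusted p, below the 6.13% and 9.23% of all genes there. Of the 97 values, 60 lay above 0 (61.9%), against 57.0% of all genes tested, and the median log2 fold change was 0.07, against 0.04 over all genes. The gene called was AGPAT3, an acyltransferase of the same family as AGPAT2, with 19.8, 18.9 and 17.55 FPKM in shHMGB2 libraries and 15.1, 15.1 and 15.5 FPKM in mock libraries (log2 fold change 0.28, SE 0.063, limma adjusted p = 0.0432). Its call was lost when any library was left out, with limma adjusted p between 0.0669 and 0.150. The ratio of AGPAT2 to AGPAT3, chosen after the values were seen, was 1.01, 0.999 and 1.02 in shHMGB2 libraries and 1.69, 1.45 and 1.49 in mock libraries. SREBF1 had 62.1, 59.4 and 56.3 FPKM in shHMGB2 libraries and 63.4, 59.8 and 61.15 FPKM in mock libraries, which overlapped (log2 fold change -0.05, limma adjusted p = 0.588). MLXIPL, which encodes the glucose-responsive factor ChREBP, was at 0.71 to 0.75 FPKM in shHMGB2 libraries and 0.71 to 0.92 FPKM in mock libraries and was not tested. PPARG, the adipogenic nuclear receptor, had a log2 fold change of -0.16 (limma adjusted p = 0.356).

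The smallest p in each remaining sublist missed the threshold. INSIG1, which holds SREBP precursors in the endoplasmic reticulum, had 34.75, 42.7 and 35.8 FPKM in shHMGB2 libraries and 48.85, 43.8 and 50.3 FPKM in mock libraries, without overlap (log2 fold change -0.33, limma adjusted p = 0.0749). IDH1, a source of cytosolic NADPH, had 107, 110 and 118 FPKM in shHMGB2 libraries and 88.55, 99.1 and 90.8 FPKM in mock libraries, without overlap (log2 fold change 0.27, limma adjusted p = 0.0586). HACD2, a dehydratase of the elongation cycle, had 29.95, 31.8 and 31.9 FPKM in shHMGB2 libraries and 22.85, 25.4 and 27.4 FPKM in mock libraries, without overlap (log2 fold change 0.30, limma adjusted p = 0.0583). HADHA, the large subunit of the mitochondrial trifunctional protein of fatty acid oxidation, had 215, 204 and 219 FPKM in shHMGB2 libraries and 186, 184 and 175 FPKM in mock libraries, without overlap (log2 fold change 0.23, limma adjusted p = 0.0560). HADHB, the other subunit, had a log2 fold change of 0.19 (limma adjusted p = 0.0743) and was looked up after its value was seen. ACOT2, a mitochondrial thioesterase that could share reads with near-identical ACOT1, and LDAH, a droplet hydrolase, had log2 fold changes of 0.29 and 0.27 (limma adjusted p = 0.0924 and 0.118).

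**Figure D4:**
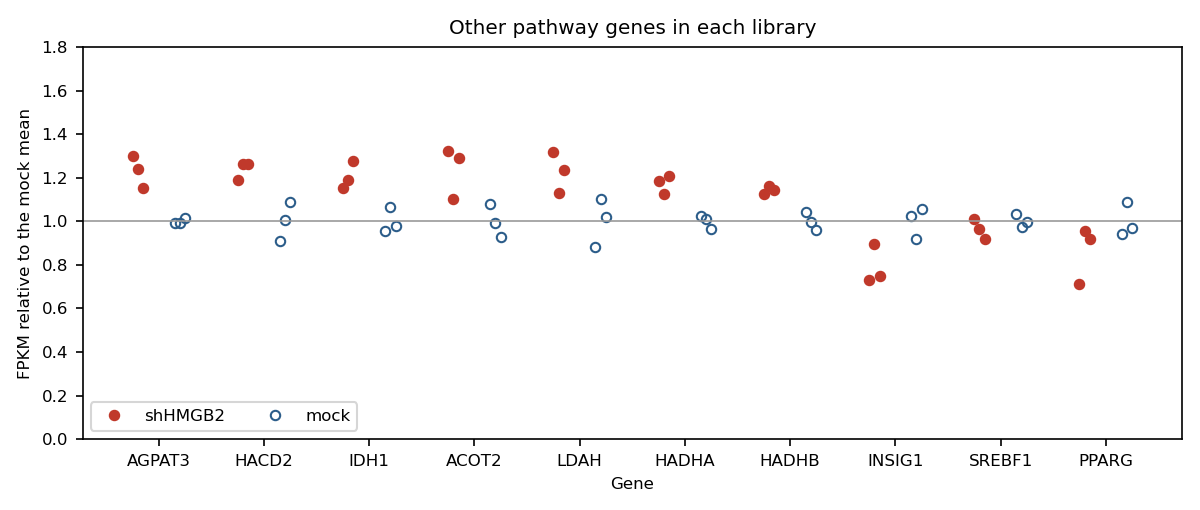
FPKM of 10 further pathway genes in each library relative to the mean of the mock libraries, with shHMGB2 as filled red points and mock as open blue points. AGPAT3 was called higher, and INSIG1 lies below its mock libraries.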

How the data were processed

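RNA-seq was done on 6 KYSE450 libraries, 3 shHMGB2 and 3 mock. The tools Bowtie2 2.2.5 and RSEM 1.2.12 and the build hg38 are listed per the submitters' processing notes, with neither role nor order stated. Expression per library is given as FPKM, per the file headers. The authors' deposited group values are a normalized signal on a scale not stated. The authors' deposited log2 fold changes and p-values come from an unnamed test. The deposited table has no counts per library, so no count test was run and the depth is not known.

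Values were fitted as log2(FPKM + 1) in limma 3.58.1 (R 4.3.3) for genes averaging 1 FPKM or more. The model held the group term alone and used a mean-variance trend. P-values were 2-sided and adjusted over 13409 genes by Benjamini-Hochberg, with a threshold of 0.05. The pseudocount of 1 makes fold changes of low genes too small. On simulated data with independent noise, the fit called 91 of 100 planted changes of 1 log2 unit, with 9 false calls. Of planted changes of 0.5 log2 units it called 60 of 100. Changes were planted only in genes of a higher level than ACACB, so the simulation does not cover genes that low. An exact permutation test of 3 against 3 cannot go below 0.1 and was not used. Tables and motif counts were made with Python 3.11.15 and pandas 2.3.3. Gene positions and start-site windows are RefSeq, GRCh38.p14.

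The genes and lists were chosen with earlier results of these data known. Values per library are given for HMGB2, genes past the threshold, the most abundant gene and the gene with the smallest p in each role group, and genes without overlap and a log2 fold change of at least 0.3 in size. Of other pathway genes, SREBF1, MLXIPL, PPARG, those past the threshold and the smallest p in each sublist are named. Values given for further genes were chosen after they were seen.

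Same-numbered libraries did not deviate together (r = -0.0116, -0.0377 and -0.0959). This cannot show whether the numbers mark a shared culture or day, and the main model did not pair them. Alternatives covered the pseudocount, filter, scaling, variance model, weights, threshold, a block and each library left out.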

Additional observations from a re-analysis of the deposited data

How the results depend on the processing

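Of the 31 genes tested, 23 kept the sign of their fold change in every alternative run and 8 did not. The counts of genes called, which were 1 higher and 0 lower of the 31, 1 and 0 of the other pathway genes, and 442 and 463 of all genes, moved with the setting. Library weights gave 7 and 3 of the 31, 26 and 4 pathway genes, and 2436 and 1758 of all genes. An adjusted p of 0.1 gave 4 and 2, 8 and 2, and 1156 and 878. The fit with no filter gave 0 and 0, 0 and 0, and 167 and 245, over more genes. Quantile normalization gave 2 and 1, then 4 and 1 pathway genes. A mean of at least 5 FPKM gave 1 and 1, then 4 and 0, and ACACB was not tested there. Median-of-ratios scaling gave 1 and 1, then 0 and 0, and moved the split of all genes to 349 higher and 571 lower. The fit with no mean-variance trend gave 0 pathway genes. The replicate block gave 0 and 0, 0 and 0, and 138 and 234, and the numbers are not known to mark a pairing. Without 1 library, 0 of the 31 were called, 0 to 2 pathway genes were higher, and of all genes 97 to 449 were higher and 193 to 446 lower. Leaving out shHMGB2 replicate 1, 2 or 3 gave 111, 97 or 118 genes higher and 209, 193 or 193 lower, and leaving out mock replicate 2 gave 123 higher and 204 lower. The cause of these moves was not tested.

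FADS1 passed with a mean of at least 5 FPKM, quantile normalization and library weights (limma adjusted p = 0.0427, 0.0475 and 0.0102). AGPAT2 passed with that filter, median-of-ratios scaling and weights (limma adjusted p = 0.0443, 0.0481 and 0.0146). ELOVL7 passed with quantile normalization and weights (limma adjusted p = 0.0410 and 0.00420). AGPAT3 lost its call with no filter, median-of-ratios scaling (0.0606), quantile normalization (0.0517), no trend (0.0539) and the replicate block (0.104), as limma adjusted p.

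The sign changes were in genes near 0. Without 1 library, log2 fold changes ran from -0.136 to 0.0386 for FASN, -0.0902 to 0.0320 for SCD5, -0.0780 to 0.0333 for FADS3, -0.0480 to 0.0306 for ELOVL1, -0.105 to 0.124 for ACSL4, -0.0435 to 0.0995 for GPAM, -0.110 to 0.0303 for LPIN1 and -0.0165 to 0.143 for DGAT2. Library weights gave 0.0767 for SCD5, 0.0287 for ELOVL1, 0.0474 for ACSL4 and -0.0383 for DGAT2. Quantile normalization gave 0.00825 for ELOVL1 and -0.0588 for GPAM. Median-of-ratios scaling gave -0.00755 for GPAM. ACSL4 was at 0.000348 with a pseudocount of 0.1 and 0.000583 with upper-quartile scaling. The read depth behind each FPKM value is unknown, so precision at low levels, as for ACACB, DGAT1 and DGAT2, cannot be stated from counts.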

Other observations

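The perilipins were unequal in these cells. PLIN3 reached 26.5 to 30.4 FPKM in shHMGB2 libraries and 28.7 to 33 FPKM in mock libraries. PLIN1, PLIN4 and PLIN5, with the lipase LIPE and the droplet fusion factor CIDEC, were at or below 0.14 FPKM in every library. HAUS6 and RRAGA, genes near PLIN2 on its chromosome, were chosen after their values were seen and stood at higher levels than PLIN2. Other neighbours of PLIN2 are not given. HAUS6 had 25.75, 29.6 and 26.4 FPKM in shHMGB2 libraries and 21.1, 26.1 and 29.2 FPKM in mock libraries. RRAGA had 61.7, 64.9 and 63.4 FPKM in shHMGB2 libraries and 70.2, 59.3 and 64.0 FPKM in mock libraries.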
